A study of Mus musculus with 17 samples.

Results

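The comparison set induced pluripotent stem cells (iPSC) that had formed without a working Nanog gene against partially reprogrammed cells (piPSC) that had stopped short with the gene intact. It was chosen by the sample titles and took 6 of the 17 RNA-seq libraries of the series. The 4 Nanog-null iPSC libraries (genotype Nanog -/-) were those of clone G2 (2 libraries) and clone G5 (2 libraries). The 2 WT piPSC libraries (genotype WT) both came from clone B1. All were mouse cells of the strain 129/B6 (v6.5) at passage 6. Per the labels' protocols, Nanog-null fibroblasts came from E12.5 chimeric embryos, made by injecting Nanog-null embryonic stem cells (ESC), and were sorted by a constitutive GFP. Retroviruses brought in the murine factors Klf4, Sox2 and Oct4, in some cases with c-Myc, and colonies picked on day 20 grew on feeder cells in 2i and LIF. The labels do not say which clones received c-Myc, and they give piPSC no medium of their own. Since the piPSC are 1 clone, genotype, clone, stage of reprogramming and any difference in sex chromosomes cannot be told apart. WT ESC 1 and 2, WT iPSC 1 and Nanog-null ESC 1 and 2, all of the same strain, served as levels. So did WT embryonic fibroblasts (MEF) of the strain c57/b6 at passage 2.

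Nanog is a homeodomain transcription factor that stabilises the self-renewal of mouse pluripotent cells together with Oct4 and Sox2. During reprogramming, retroviral copies of the factors drive the cells until their own pluripotency genes switch on, after which the retroviral promoter is normally silenced. Partially reprogrammed cells grow as colonies of dividing cells in which that handover has not taken place. Medium with 2i holds inhibitors of MEK, the kinase upstream of ERK, and of GSK3, the kinase that restrains Wnt signalling through beta-catenin, while LIF acts through Stat3.

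To the nearest 1000, the libraries held 17682000 to 32460000 assigned fragments in Nanog-null iPSC and 28480000 to 29375000 in piPSC. They had 12656 to 12680 genes in Nanog-null iPSC and 11737 to 11815 in piPSC at an FPKM (fragments scaled to gene length and library size) of at least 1. Levels below are the authors' deposited FPKM. Changes are log2 fold changes ± SE of Nanog-null iPSC over piPSC from edgeR's quasi-likelihood test on the fragments, with a term for each clone. A gene that rose or fell had a Benjamini-Hochberg adjusted p under 0.05, and no weaker difference is called a change. In parentheses, the mean ± SD FPKM of Nanog-null iPSC (n = 4) precedes that of piPSC (n = 2). Of 16459 genes tested, 6982 (42.4%) rose and 6702 (40.7%) fell. Nanog-null and piPSC libraries did not overlap in FPKM for 81.7% of the genes. A change of at least 2-fold was found for 48.9%: rises numbered 4615 (28.0%) and falls 3428 (20.8%). The median log2 change of all genes was 0.03, and 0.161 when fragments were scaled by library totals alone, so small changes are to be read against that shift. The 4 Nanog-null libraries are of 2 clones, and the errors of the fit leave out the spread between the clones. With so many genes called, a list is described by how far its members lay from that median. Genes near 0 in piPSC could pass the filter on low counts only through the Nanog-null libraries. Lists with many such genes lean to rises in part for that reason. Whether the replicates of a clone were grown as separate cultures is not stated in the labels, so the spread behind the p-values is that between libraries and may be technical.

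Nanog and the factor genes set the groups apart first. Nanog RNA was 27.2 and 27.8 FPKM in G2 and 40.0 and 42.98 in G5, against 3.12 and 2.91 in piPSC. The 4 Nanog-null libraries all lay above both piPSC libraries (log2 3.10 ± 0.10, edgeR adjusted p = 1.4e-09), although piPSC carry the intact gene. WT ESC 1 and 2 averaged 571 FPKM and Nanog-null ESC 47.7. The deposited level is for the gene as a whole, whatever exon a fragment came from, and is no test of the deletion. The stretch of the Nanog promoter below, chr6:122707371-122707470 on the plus strand (RefSeq, GRCm38.p6), ends 19 bases before the annotated start. It is shown because the composite site at which Oct4 and Sox2 bind side by side to Nanog lies in it, here in capitals:
Nanog: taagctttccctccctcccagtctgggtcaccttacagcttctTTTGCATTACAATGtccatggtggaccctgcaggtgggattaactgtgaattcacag
The letters TTTGCAT, any base and ACAATG, in this order on either strand, were found in 2 of 32851 windows of 250 bases before to 50 after a gene start, and both belonged to Nanog. This describes the sequence only.

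The genes of the factors delivered by retrovirus did not run with Nanog. Pou5f1, which encodes Oct4, was 553 and 507 FPKM in G2 and 591 and 613 in G5, against 6975 and 7303 in piPSC. Klf4 was 26.5 and 24.9 FPKM in G2 and 20.7 and 20.5 in G5, against 2548 and 3065 in piPSC. Myc was 9.20 and 11 FPKM in G2 and 6.95 and 8.22 in G5, against 1237 and 1506 in piPSC. All 3 genes were lower in every Nanog-null library, with log2 changes of -3.63 ± 0.06 for Pou5f1, -6.15 ± 0.08 for Klf4 and -7.20 ± 0.11 for Myc. In WT ESC 1 and 2, which received no retrovirus, Pou5f1 averaged 758 FPKM, Klf4 65.2 and Myc 3.52, so piPSC lay far above ESC for all of these genes and the Nanog-null clones much closer to them. Sox2 was 41.5 and 41.8 FPKM in G2 and 38.5 and 39.8 in G5, against 28.6 and 51.5 in piPSC. The groups overlapped for Sox2 (log2 0.10 ± 0.18, edgeR adjusted p = 0.62), and the piPSC libraries set the sign: without piPSC 1 the log2 change was -0.25, and without piPSC 2 it was 0.58. Both groups were below the 142 FPKM of WT ESC. Gene-level values do not separate RNA of the cell's own copy from RNA of a retroviral copy.

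**Figure D1:**
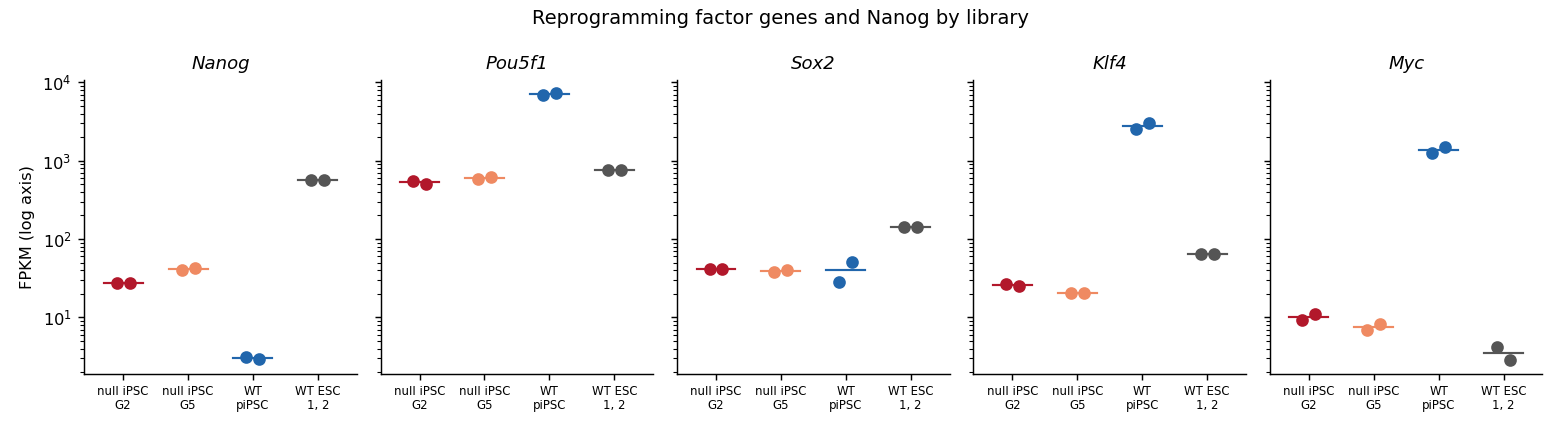
FPKM on a log axis of Nanog and the factor genes, with a point for each library and a bar at the group mean, for Nanog-null iPSC (G2 and G5 apart), WT piPSC and WT ESC 1 and 2. Nanog averaged 34.5 in Nanog-null iPSC against 3.01 in piPSC, while Pou5f1, Klf4 and Myc stood higher in piPSC than in any other group drawn, and Sox2 overlapped between Nanog-null iPSC and piPSC.

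Because colonies grew on feeder cells, fibroblast genes come next. Col1a1, the type I collagen gene, was 278 and 303 FPKM in G2 and 107 and 114 in G5, against 0.364 and 0.319 in piPSC. Clone G2 was the highest, G5 lay between, and piPSC were near 0, while WT MEF averaged 1239 FPKM, WT ESC 1 and 2 48.6 and Nanog-null ESC 211. Among fibroblast and matrix genes, 27 of the 28 members chosen passed the filter, of which 24 rose and 3 fell, with a median log2 change of 3.51. Lox (175 ± 68.7 against 0.202 ± 0.0284 FPKM, log2 9.73 ± 0.13), which crosslinks collagen, Col3a1 (158 ± 97.7 against 0.177 ± 0.0116 FPKM, log2 9.67 ± 0.12) and Col1a2 (181 ± 87.6 against 0.439 ± 0.0351 FPKM, log2 9.13 ± 0.11) rose most. S100a6 (203 ± 9.61 against 626 ± 31.9 FPKM, log2 -1.65 ± 0.07) and the metalloproteinase inhibitor genes Timp1 (62.6 against 93.9 FPKM, log2 -0.62) and Timp3 (38.6 against 54.5 FPKM, log2 -0.57) fell, Timp3 without passing the test when the clones shared a term (log2 -0.52, edgeR adjusted p = 0.0580). The summed FPKM of the list was 3150 to 3235 in G2, 1764 to 1767 in G5, 1013 to 1082 in piPSC and 13191 to 13209 in WT MEF. The median member stood in Nanog-null iPSC at 0.162 of its MEF level. In bulk RNA, fewer fibroblasts and less RNA per fibroblast cannot be told apart, and the part of feeder RNA in other results was not tested. The MEF level is therefore given beside many of the genes that MEF express, and a gene printed without it may still be expressed in MEF.

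**Figure D2:**
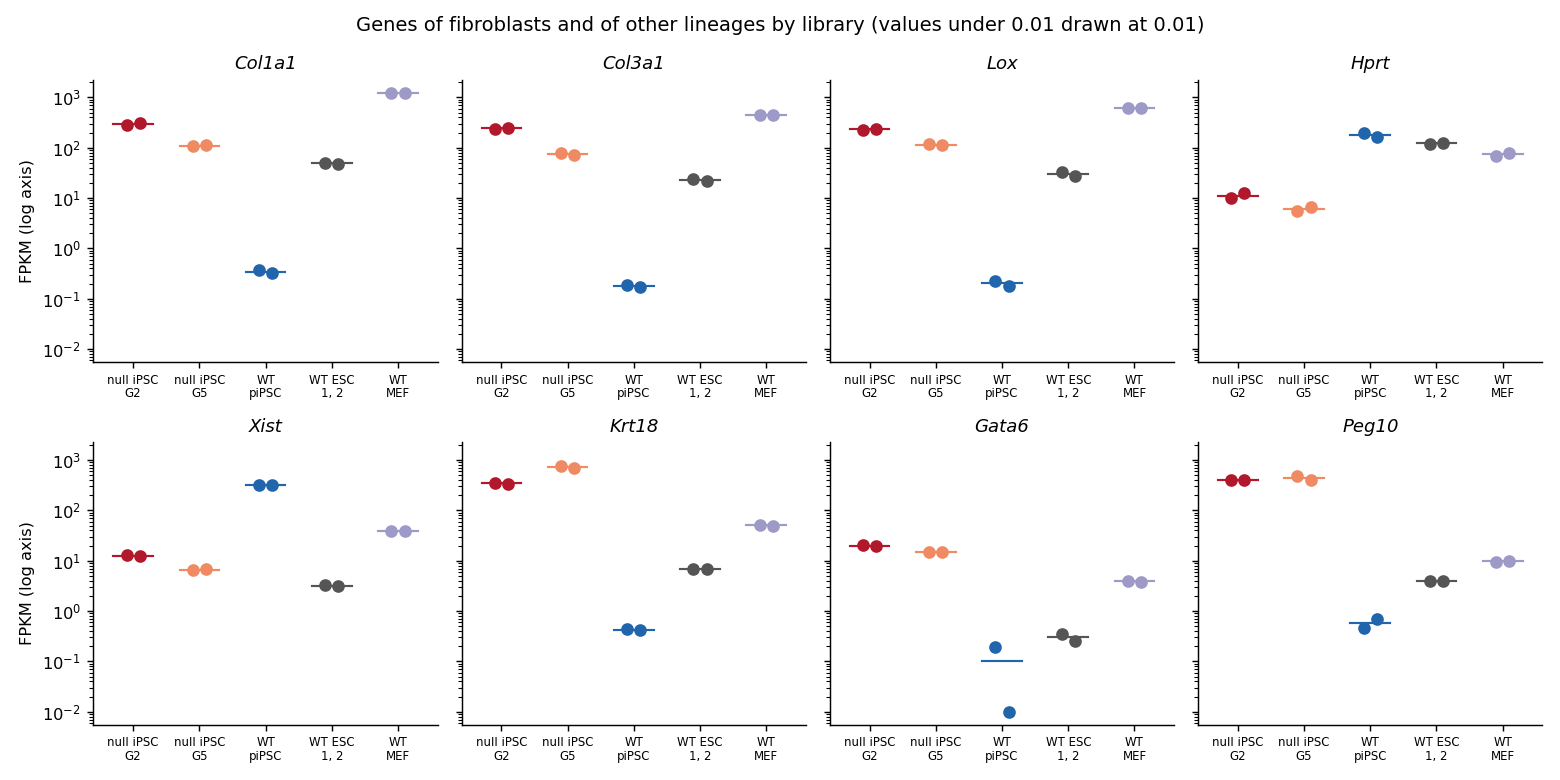
FPKM on a log axis of genes of fibroblasts (Col1a1, Col3a1, Lox), of Hprt and Xist, and of epithelial, endoderm and trophoblast genes (Krt18, Gata6, Peg10) in each library of Nanog-null iPSC (G2 and G5 apart), WT piPSC, WT ESC 1 and 2 and WT MEF. Bars mark group means, and values under 0.01 are drawn at 0.01. The collagen genes and Lox lay lowest in piPSC, and Krt18 at 535 and Peg10 at 424 FPKM in Nanog-null iPSC lay above the 50.2 and 9.71 of WT MEF.

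The largest rises, among genes reaching 10 FPKM, were of genes at or near 0 in piPSC. The gap junction gene Gjb2 was 78.2 and 83.4 FPKM in G2 and 58.1 and 53.8 in G5, against 0 and 0 in piPSC. Against the limit set by 3 fragments in each piPSC library it was at least 1689-fold higher, and WT MEF had 91.4 FPKM. Also without a fragment in piPSC were the RNA export gene Nxf7, at 94.5 ± 15.7 FPKM and at least 1266-fold higher, and the protease gene Tmprss2, at 18.1 ± 0.785 FPKM and at least 599-fold higher. The same held for the Wnt antagonist gene Dkk1, at least 250.0-fold higher, and the growth cone gene Gap43, at least 167-fold higher, with 23.99 FPKM in MEF. Other genes had 1 to 3 fragments in piPSC and are given as ratios of scaled fragments. The ratio was 3127 (95% counting interval 866 to 25822) for Zfp36l3, a placental gene of the RNA-binding Zfp36 family. It was 3388 (95% counting interval 608 to 133834) for the protease inhibitor gene Serpinb9e, 2298 (95% counting interval 413 to 90782) for AU015836 (an ID of a symbol with several), 1461 (95% counting interval 404 to 12060.5) for the water channel gene Aqp8 and 1571 (95% counting interval 282 to 62060) for Sct, the gene of the hormone secretin. Intervals cover counting error only. Fabp3, which binds fatty acids, was 1109 and 1063 FPKM in G2 and 1238 and 1164 in G5, against 0.963 and 0.749 in piPSC. It was the most abundant of these genes (log2 10.35 ± 0.12), and Krt7, a keratin gene of simple epithelia (72.5 ± 33.0 against 0.0344 ± 0.0252 FPKM, log2 10.25 ± 0.19), was the other largest rise named, with 7.86 FPKM of Fabp3 and 6.32 of Krt7 in MEF.

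The largest falls, by the same level rule, were of genes nearly absent from the Nanog-null clones. Slc38a5, a transporter of glutamine and other neutral amino acids, was 0.116 and 0.107 FPKM in G2 and 0.163 and 0.189 in G5, against 1952 and 1931 in piPSC. No library of Nanog-null iPSC came near piPSC (log2 -14.04 ± 0.10), and WT ESC 1 and 2 averaged 3.86 FPKM. The homolog Eya2 of the fly eyes absent gene (0.206 ± 0.108 against 280.5 ± 4.34 FPKM, log2 -11.08 ± 0.11), the tight junction gene Cldn11 (0.0794 ± 0.0589 against 129.7 ± 25.8 FPKM, log2 -10.94 ± 0.18) and Nccrp1 (0.224 ± 0.0834 against 471 ± 105 FPKM, log2 -11.01 ± 0.18) followed, with 1.03, 0.253 and 1.62 FPKM in WT ESC. Without a fragment in Nanog-null iPSC were the antitrypsin gene Serpina1e (piPSC 33.2 and 52.1 FPKM), the cystatin gene Cst12 (184 and 88.4) and the Ly6 family gene Lypd2 (48.8 and 60.0). In Nanog-null iPSC they were at least 578-fold, 489.6-fold and 166-fold lower. The tachykinin gene Tac2 had 1 to 3 fragments over the Nanog-null libraries and 98.0 and 159 FPKM in piPSC, a ratio of piPSC to Nanog-null iPSC of 3965 (95% counting interval 1098 to 32739). So few fragments were also left of the kallikrein genes Klk1b27 (piPSC 39.5 and 41.5 FPKM) and Klk1b24 (19.2 and 15.1) and the casein gene Csn1s1 (13.7 and 9.93). The ratio of piPSC to Nanog-null iPSC was 3509 (95% counting interval 629.8 to 138588) for Klk1b27, 1471 (95% counting interval 264 to 58093) for Klk1b24 and 1803 (95% counting interval 324 to 71202) for Csn1s1. Kallikrein and serpin genes have near-identical copies that share reads, so their single values are uncertain. Tmem132d (0.0136 ± 0.0127 against 21.1 ± 7.54 FPKM, log2 -10.34 ± 0.34) completed the list of falls.

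Pluripotency genes were as a rule far higher in the Nanog-null clones. Of the factors and markers, all 35 members passed the filter, of which 31 rose and 4 fell, and 27 rises were at least 2-fold, with a median log2 change of 5.36 against 0.03 for all genes. Esrrb, an orphan nuclear receptor of naive cells, was 83.5 and 77.6 FPKM in G2 and 64.5 and 74.0 in G5, against 0.536 and 0.511 in piPSC. Its quantification carried a failure mark in G2 library 1, and its fragments were 12290, 6389, 7243 and 7405 in the Nanog-null libraries and 73 and 64 in piPSC. Every Nanog-null library was far above piPSC on both scales (log2 7.03 ± 0.11). Dppa3, which protects maternal methylation in the zygote, was 61.4 and 55.1 FPKM in G2 and 41.6 and 51.9 in G5, against 0.346 and 0.277 in piPSC. It rose by log2 7.52 ± 0.21, and the RNA-binding gene Lin28a (10.6 ± 1.33 against 0.0548 ± 0.0519 FPKM, log2 7.66 ± 0.22) and Dppa5a (2448 ± 732 against 18.5 ± 0.383 FPKM, log2 6.98 ± 0.13) rose by similar amounts. Zfp42, known as Rex1, was 114 and 112 FPKM in G2 and 121 and 135 in G5, against 1.07 and 0.965 in piPSC, without overlap (log2 6.87 ± 0.11). The zinc finger factor Sall4 (33.1 ± 2.16 against 0.267 ± 0.0283 FPKM, log2 6.93 ± 0.10), the chromatin factor Utf1 (21.9 ± 5.07 against 0.212 ± 0.126 FPKM, log2 6.67 ± 0.22) and the naive factor Tfcp2l1 (72.2 ± 1.38 against 1.61 ± 0.418 FPKM, log2 5.48 ± 0.15) rose as well. For Zfp42, Sall4 and Dppa5a all WT MEF libraries were listed at 0.

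Some pluripotency genes were already high in piPSC. L1td1, an RNA-binding protein gene of pluripotent cells, had 168 ± 36.9 against 136 ± 16.2 FPKM (log2 0.27 ± 0.08), with overlap, and did not pass the test when the clones shared a term (edgeR adjusted p = 0.150). The Nodal co-receptor gene Tdgf1 (177 ± 55.2 against 75.9 ± 25.8 FPKM, log2 1.16 ± 0.16) and the Oct4 target Fbxo15 (154 ± 45.2 against 85.3 ± 2.19 FPKM, log2 0.79 ± 0.07) rose by little more, and Sall1 by log2 0.42 ± 0.09. Fgf4, the ES cell FGF and a target of Oct4 and Sox2, was 7.50 and 7.89 FPKM in G2 and 9.03 and 10.1 in G5, against 40.4 and 30.8 in piPSC. It fell (log2 -2.07 ± 0.10), and Nanog-null ESC had 5.595 FPKM, against 81.0 in WT ESC. Eras, a Ras-like GTPase gene (1.58 ± 0.483 against 4.87 ± 1.29 FPKM, log2 -1.70 ± 0.21), and Lin28b, which blocks let-7 (2.40 ± 0.201 against 5.57 ± 0.0497 FPKM, log2 -1.22 ± 0.08), also fell.

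**Figure D3:**
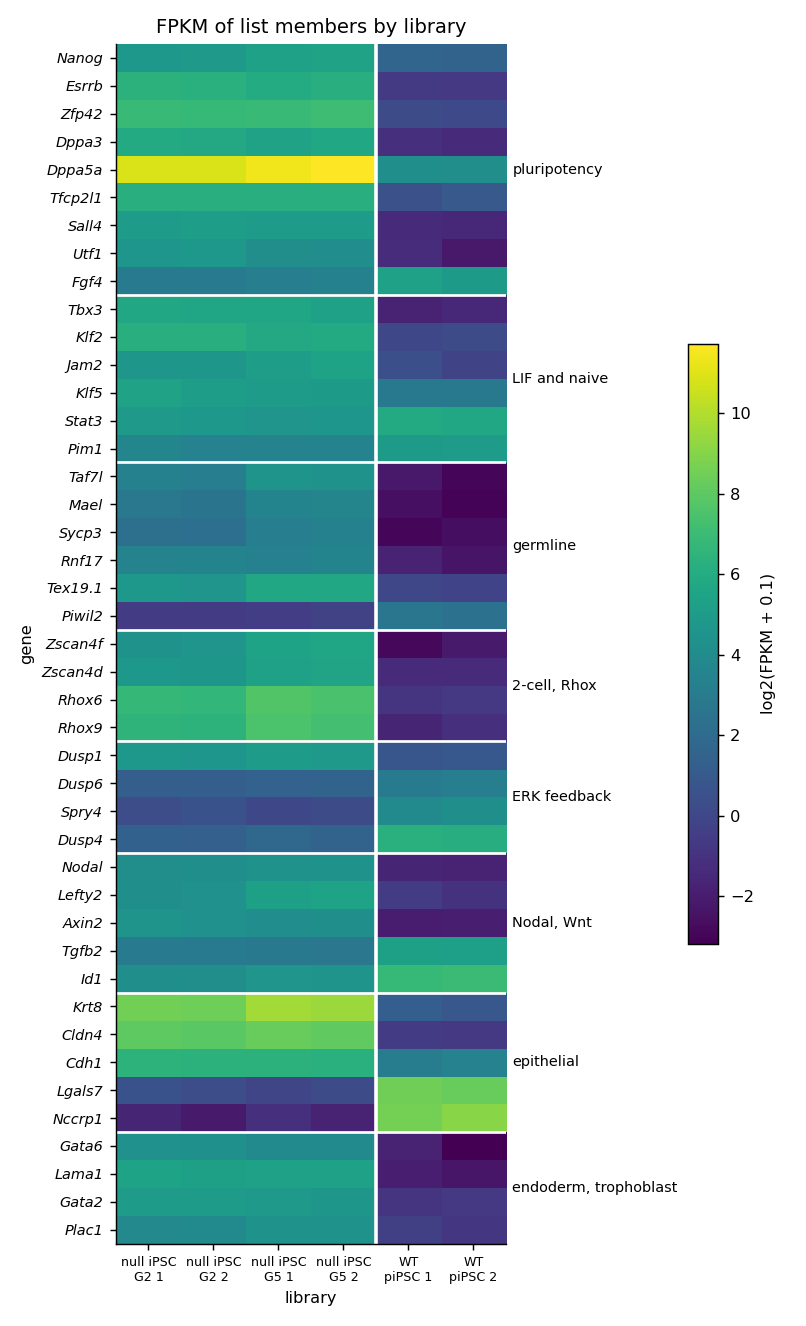
Log2(FPKM + 0.1), by colour, of members of the lists in the 4 Nanog-null iPSC libraries (left of the white line) and both piPSC libraries (right of it), grouped by list. The replicates of a clone look alike, and Fgf4, Stat3, Pim1, Piwil2, Dusp6, Spry4, Dusp4, Tgfb2, Id1, Lgals7 and Nccrp1 are the rows brighter in piPSC.

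Genes of the naive state and of the LIF response moved in both directions. In this list all 21 members passed the filter, of which 12 rose and 8 fell, with a median log2 change of 0.70. The transcription factor gene Tbx3 was 53.6 and 49.3 FPKM in G2 and 48.3 and 41.0 in G5, against 0.213 and 0.244 in piPSC, with no overlap (log2 7.93 ± 0.13), and Klf2 (65.0 ± 7.89 against 1.01 ± 0.103 FPKM, log2 5.98 ± 0.11) and Klf5 (35.6 ± 5.45 against 7.01 ± 0.0167 FPKM, log2 2.32 ± 0.09) rose with it. So did the junction gene Jam2 (32.8 ± 8.56 against 1.06 ± 0.327 FPKM, log2 5.02 ± 0.14) and the Akt co-activator gene Tcl1 (14.6 ± 2.30 against 0.555 ± 0.159 FPKM, log2 4.80 ± 0.20). Stat3, which carries the LIF signal, was 29.2 and 27.2 FPKM in G2 and 23.98 and 25 in G5, against 59.6 and 54.7 in piPSC. Every Nanog-null library was below piPSC (log2 -1.12 ± 0.06), and the LIF receptor gene Lifr (4.16 ± 0.218 against 9.40 ± 0.0340 FPKM, log2 -1.24 ± 0.07) and the Stat3 target kinase gene Pim1 (11.3 ± 0.763 against 32.1 ± 1.85 FPKM, log2 -1.51 ± 0.08) also fell. Socs3, the feedback inhibitor of the pathway, had 16.3 ± 3.37 against 16.8 ± 4.67 FPKM (edgeR adjusted p = 0.64), and its log2 change was -0.31 without piPSC 1 and 0.25 without piPSC 2. Fgfbp1, which frees FGFs from the matrix, fell most (22.5 ± 7.37 against 134 ± 4.80 FPKM, log2 -2.65 ± 0.06).

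Genes of the formative and primed epiblast were mostly higher in the Nanog-null clones too. Of the list, 16 of the 17 members chosen passed the filter, of which 14 rose and 2 fell (median log2 change 4.38, or 4.31 with genes at 0 in piPSC set to their limit). Foxd3 (7.09 ± 0.503 against 0.0270 ± 0.0188 FPKM, log2 7.92 ± 0.26), a forkhead factor of pluripotent cells, and Nodal (20.1 ± 1.81 against 0.210 ± 0.00806 FPKM, log2 6.55 ± 0.13) rose. Car4, a carbonic anhydrase gene, was 35.5 and 33.9 FPKM in G2 and 33.3 and 32.9 in G5, against 0 and 0.180 in piPSC, and WT ESC had 0.0669. Both piPSC libraries lay far below, a ratio of 1176 (95% counting interval 325 to 9708), and Nanog-null ESC had 11.6 FPKM and WT iPSC 1 0.648. Otx2, the factor that drives exit from the naive state, was low in both groups, at 1.32 ± 0.114 against 0.0440 ± 0.0344 FPKM, a ratio of 52.8 (95% counting interval 18.1 to 256). Zic2 (5.17 ± 0.409 against 14.7 ± 2.05 FPKM, log2 -1.53 ± 0.10) and Zic5 (3.70 ± 0.0941 against 10.7 ± 1.04 FPKM, log2 -1.69 ± 0.08) fell.

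Germline genes, of meiosis and of the piRNA pathway that guards germ cells from transposons, rose nearly throughout. Among them all 24 members passed the filter, of which 22 rose and 1 fell (median log2 change 4.89, or 4.83 with genes at 0 in piPSC set to their limit), though many stayed low. Taf7l, a germ cell copy of a subunit of the basal transcription factor TFIID, was 10.3 and 9.22 FPKM in G2 and 22.7 and 21.1 in G5, against 0.122 and 0.0343 in piPSC. Mael, a piRNA pathway gene, was 6.79 and 5.81 FPKM in G2 and 11.7 and 12.03 in G5, against 0.0647 and 0.0220 in piPSC. Neither gene overlapped between the groups, with log2 changes of 7.60 ± 0.21 and 7.53 ± 0.27. Sycp3, of the axis of meiotic chromosomes, was 4.87 and 4.72 FPKM in G2 and 9.02 and 10.1 in G5, against 0.0307 and 0.0627 in piPSC, a ratio of 149 (95% counting interval 50.9 to 721). The meiotic genes Syce1 (6.95 ± 1.35 against 0.0464 ± 0.000659 FPKM, log2 7.10 ± 0.26) and Hormad1 (4.54 ± 0.775 against 0.160 ± 0.0164 FPKM, log2 4.89 ± 0.29) and the germ cell helicase gene Ddx4 (4.50 ± 1.29 against 0.147 ± 0.0630 FPKM, log2 4.88 ± 0.22) rose too, but Hormad1 and Ddx4 remained below the 23.9 and 15.5 FPKM of WT ESC. Dazl had 2.46 ± 0.415 FPKM against 0.153 ± 0.0397, and WT ESC had 25.9. The summed FPKM of the list was 113 to 176 in Nanog-null iPSC, 12.2 to 12.6 in piPSC and, highest, 371 to 373 in WT ESC. Piwil2, a Piwi protein gene, was the member that fell (0.618 ± 0.0641 against 5.79 ± 0.632 FPKM, log2 -3.24 ± 0.11). Sycp1 was not called (1.74 ± 0.164 against 1.35 ± 0.0832 FPKM, edgeR adjusted p = 0.059), with a log2 change of 0.38 without piPSC 2.

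Several of these promoters hold the E-box CACGTG, the palindrome bound by the Mga, Max and E2f6 repressor complex that represses germline genes in ESC. Stretches upstream of the starts of Sycp3, Hormad1 and Taf7l are shown because these genes rose and hold it, with the E-box in capitals (RefSeq, GRCm38.p6). Sycp3 is chr10:88459496-88459575 and Hormad1 chr3:95559597-95559676, both on the plus strand, and Taf7l is chrX:134476497-134476576 on the minus strand.
Sycp3: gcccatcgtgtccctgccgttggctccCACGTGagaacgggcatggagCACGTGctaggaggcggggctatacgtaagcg
Hormad1: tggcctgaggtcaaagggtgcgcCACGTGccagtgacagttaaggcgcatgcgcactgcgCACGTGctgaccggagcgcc
Taf7l: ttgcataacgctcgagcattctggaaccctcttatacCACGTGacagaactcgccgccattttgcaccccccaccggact
Of the 22 germline genes with a promoter in the table, 12 (54.5%) held CACGTG in a window of 250 bases before to 50 after the start. Of all 27025 genes in the table, 2187 (8.09%) did. The holders were Brdt, Ddx4, Hormad1, Mael, Mov10l1, Slc25a31, Stag3, Stk31, Sycp1, Sycp3, Taf7l and Tdrd1, all of which rose except Sycp1. Over the whole germline list, with or without the E-box, 22 of 24 members rose. A link between the E-box and the rises was not tested. A match shows letters, not binding.

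Genes of the 2-cell stage embryo, which a small share of ESC switches on at any time, were close to 0 in piPSC. Of the 12 members chosen, 10 were in the files, 9 passed the filter and 9 rose (median log2 change 7.13, or 7.02 with genes at 0 in piPSC set to their limit). Genes this low in piPSC could pass the filter only through the Nanog-null libraries, so the count of rises was largely set by it. Zscan4d was 26.8 and 26.2 FPKM in G2 and 40.1 and 45.8 in G5, against 0.293 and 0.299 in piPSC, and Zscan4f was 21.03 and 24.4 FPKM in G2 and 44.1 and 50.4 in G5, against 0.0357 and 0.128 in piPSC. Neither overlapped, and WT ESC 1 and 2 averaged 15.7 and 18.6 FPKM. The Zscan4 copies are nearly identical, so reads can be shared among them. Tmem92 (15.7 ± 8.02 against 0.0983 ± 0.0176 FPKM, log2 7.13 ± 0.21) and Dub1 (5.84 ± 0.733 against 0.126 ± 0.0578 FPKM, log2 5.49 ± 0.21) rose with them.

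The Rhox genes, an X-linked cluster of homeobox genes of placenta and germ cells, also rose. Of 8 chosen, 7 were in the files and 4 passed the filter, which genes near 0 in piPSC could do only through the Nanog-null libraries. Rhox6 was 106 and 104 FPKM in G2 and 207 and 177 in G5, against 0.426 and 0.508 in piPSC, and Rhox9, a close relative, was 92.3 and 86.9 FPKM in G2 and 179.8 and 151 in G5, against 0.221 and 0.348 in piPSC. Both were abundant in every Nanog-null library and near 0 in piPSC (log2 8.22 ± 0.15 and 8.65 ± 0.18). They averaged 3.25 and 3.52 FPKM in WT ESC, and 76.3 and 58.4 in Nanog-null ESC. Rhox13 had no fragment in piPSC and 0.751 ± 0.169 FPKM in Nanog-null iPSC, at least 5.76-fold higher, and Rhox1 had 1.09 ± 0.293 against 0.0210 ± 0.0296, a ratio of 50.7 (95% counting interval 9.11 to 2004). Rhox2a, Rhox4b and Rhox10 fell below the filter on low counts, without a fragment in piPSC, and Rhox5 was not matched.

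Feedback genes of the ERK pathway, which active ERK switches on, were mostly lower. Here all 16 members passed the filter, of which 5 rose and 10 fell (median log2 change -1.06). Dusp4, a phosphatase that inactivates ERK, was 2.63 and 2.52 FPKM in G2 and 3.34 and 2.83 in G5, against 78.7 and 67.8 in piPSC. Spry4, an inhibitor of receptor signalling to Ras, was 1.17 and 1.41 FPKM in G2 and 0.937 and 1.13 in G5, against 15.1 and 18.7 in piPSC. In both, all Nanog-null libraries were far below piPSC (log2 -4.71 ± 0.09 and -3.90 ± 0.11), and WT ESC had 1.23 and 0.112 FPKM. The related gene Spred3 (1.95 ± 0.174 against 20.04 ± 0.213 FPKM, log2 -3.29 ± 0.07), Spred1 (4.70 ± 0.808 against 17.5 ± 1.39 FPKM, log2 -1.95 ± 0.06) and the ERK phosphatase gene Dusp6 (2.62 ± 0.220 against 8.23 ± 0.9502 FPKM, log2 -1.67 ± 0.10) fell, as did the ETS factor genes Etv4 (18.9 against 35.4 FPKM, log2 -0.97) and Etv5 (66.6 against 171 FPKM, log2 -1.42). Dusp1, a stress-induced phosphatase, went the other way (28.3 ± 2.96 against 1.69 ± 0.102 FPKM, log2 4.07 ± 0.10), with Phlda1 (6.80 ± 0.666 against 0.873 ± 0.177 FPKM, log2 2.94 ± 0.18), Dusp5 (8.81 ± 1.73 against 2.57 ± 0.715 FPKM, log2 1.75 ± 0.16) and Spry1 (8.39 ± 1.67 against 3.72 ± 1.83 FPKM, log2 1.14 ± 0.23), and these were 66.9, 56.3, 80.4 and 15.3 FPKM in MEF. AP-1 genes were split as well. Junb (8.003 ± 1.19 against 34.7 ± 0.370 FPKM, log2 -2.14 ± 0.07) and Fos (2.13 ± 0.216 against 8.16 ± 0.543 FPKM, log2 -1.99 ± 0.11) fell, whereas Atf3 (13.9 ± 3.14 against 0.654 ± 0.430 FPKM, log2 4.67 ± 0.18), Jun (12.5 ± 1.30 against 3.19 ± 0.265 FPKM, log2 1.92 ± 0.09) and Jund (53.4 ± 3.18 against 15.2 ± 0.488 FPKM, log2 1.73 ± 0.08) rose, and in all 12 of the 14 members chosen passed the filter, of which 4 rose and 5 fell. Of the FGF genes, 10 of the 13 members chosen passed the filter, of which 7 rose and 3 fell. Their main change of level, beside Fgf4, was that of the receptor gene Fgfr2 (10.7 ± 0.927 against 0.169 ± 0.110 FPKM, log2 6.27 ± 0.23, 11.2 in MEF).

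Nodal signalling genes rose and part of the TGF-beta and BMP response fell. In this list all 26 members passed the filter, of which 19 rose and 6 fell (median log2 change 1.46). Nodal, the ligand, was 18.1 and 19 FPKM in G2 and 21.4 and 21.9 in G5, against 0.215 and 0.204 in piPSC. Its feedback inhibitor Lefty2 was 19.2 and 20.5 FPKM in G2 and 39.0 and 43.4 in G5, against 0.591 and 0.393 in piPSC. Neither overlapped between the groups, and Lefty1 (18.7 ± 5.73 against 0.252 ± 0.124 FPKM, log2 6.31 ± 0.18) and Gdf3 (20.8 ± 2.05 against 2.96 ± 0.889 FPKM, log2 2.79 ± 0.16), a ligand of the same class, rose with them. MEF were listed at 0 for Nodal and Lefty2. Thbs1, the gene of the matrix protein thrombospondin, rose further (121 ± 26.0 against 0.654 ± 0.153 FPKM, log2 7.57 ± 0.12) and had 1989 FPKM in MEF. Id1, a direct target of BMP signals, was 18.9 and 18.1 FPKM in G2 and 23.7 and 23.0 in G5, against 111 and 124 in piPSC. It fell without overlap (log2 -2.52 ± 0.07), with the ligand gene Tgfb2 (7.25 ± 0.709 against 38.6 ± 1.14 FPKM, log2 -2.41 ± 0.06), the inhibin subunit gene Inhbb (3.42 ± 0.0923 against 10.5 ± 0.392 FPKM, log2 -1.64 ± 0.07) and the repressor gene Skil (16.7 ± 2.91 against 40.8 ± 1.67 FPKM, log2 -1.42 ± 0.06). Id3 was not called (13.9 ± 2.17 against 13.2 ± 1.35 FPKM, edgeR adjusted p = 0.53), and Id2 rose (26.7 ± 2.27 against 7.06 ± 0.275 FPKM, log2 1.90 ± 0.10).

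Wnt pathway genes, direct targets among them, were mostly higher in the Nanog-null clones. Of the list, 24 of the 25 members chosen passed the filter, of which 22 rose and 1 fell (median log2 change 3.49). Axin2, the standard target and feedback inhibitor, was 22.6 and 20.3 FPKM in G2 and 17.5 and 18.7 in G5, against 0.151 and 0.159 in piPSC. Sp5, another direct target, was 9.10 and 8.66 FPKM in G2 and 3.298 and 3.78 in G5, against 0.0153 and 0 in piPSC, and Dkk1, given above, had no fragment in piPSC. Axin2 did not overlap (log2 8.28 ± 0.14), and Sp5 had a ratio of 795 (95% counting interval 143 to 31392). The caudal gene Cdx1 (12.8 ± 0.620 against 0.228 ± 0.0568 FPKM, log2 5.79 ± 0.17), the TCF genes Tcf7 (8.90 ± 1.02 against 0.523 ± 0.233 FPKM, log2 4.07 ± 0.20) and Tcf7l1 (11.4 ± 3.60 against 1.18 ± 0.0658 FPKM, log2 3.03 ± 0.12) and the ligand gene Wnt7b (6.41 ± 2.30 against 0.0605 ± 0.0190 FPKM, log2 6.62 ± 0.21) rose as well. Tcf7l2 fell slightly (4.95 against 5.98 FPKM, log2 -0.35), though not when the clones shared a term (edgeR adjusted p = 0.0573), and Wnt3a, at 0.161 ± 0.0557 against 0.0925 ± 0.0339 FPKM, was not called (edgeR adjusted p = 0.14).

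Among genes that write, erase or read DNA methylation, the largest changes were in the de novo machinery and in Tet3. Of the 12 genes, 5 rose and 5 fell (median log2 change -0.02). Dnmt3l, the cofactor without catalytic activity, was 38.7 and 39.5 FPKM in G2 and 23.6 and 22.4 in G5, against 0.180 and 0.0961 in piPSC. Dnmt3b, a de novo methyltransferase, was 41.0 and 41.0 FPKM in G2 and 36.9 and 34.7 in G5, against 1.88 and 2.40 in piPSC. Both were higher in every Nanog-null library (log2 7.79 ± 0.17 and 4.30 ± 0.10) and also above WT ESC, which had 2.87 and 3.38 FPKM. Dnmt3a averaged 22.5 ± 4.33 against 8.70 ± 0.382 FPKM, yet rose by only log2 0.43 ± 0.07 on fragments, and why the scales differ was not tested. Of the oxidases that begin demethylation, Tet1 rose (18.03 ± 1.79 against 4.67 ± 1.58 FPKM, log2 2.04 ± 0.14), and Tet3 fell (1.94 ± 0.199 against 17.5 ± 1.29 FPKM, log2 -3.21 ± 0.07). The maintenance gene Dnmt1 was not called (53.3 ± 2.31 against 57.6 ± 7.06 FPKM, edgeR adjusted p = 0.17), and without piPSC 1 its log2 change was -0.23.

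Genes known to silence retroviruses in pluripotent cells were higher on the whole, by modest amounts beyond Dnmt3l and Dnmt3b. In that list all 15 members passed the filter, of which 11 rose and 3 fell (median log2 change 0.42). Trim28, the corepressor that KRAB zinc finger proteins recruit, was 287 and 297 FPKM in G2 and 267 and 267 in G5, against 112 and 128 in piPSC. Zfp809, the zinc finger protein that recognises the primer binding site of Moloney virus, was 19.6 and 22.6 FPKM in G2 and 20.5 and 21.7 in G5, against 6.04 and 5.14 in piPSC. Both were higher without overlap (log2 1.16 ± 0.08 and 1.89 ± 0.12), and so was the histone chaperone gene Daxx (35.7 ± 0.619 against 12.9 ± 0.437 FPKM, log2 1.39 ± 0.08). Ehmt1 (15.6 ± 0.927 against 26.4 ± 1.70 FPKM, log2 -0.76 ± 0.06), Atrx (33.5 ± 3.37 against 48.1 ± 3.49 FPKM, log2 -0.65 ± 0.06) and Ehmt2 (41.5 ± 2.06 against 56.0 ± 3.85 FPKM, log2 -0.54 ± 0.07) fell, and Setdb1, the methyltransferase bound to Trim28, changed little (30.3 against 26.1 FPKM, log2 0.23).

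Chromatin remodellers and Polycomb genes moved in both directions. For BAF and NuRD subunits 22 of the 23 members chosen passed the filter, of which 7 rose and 11 fell (median log2 change -0.20). Smarca2, the ATPase that ESC replace by Smarca4, was 20 and 21.96 FPKM in G2 and 13.3 and 13.8 in G5, against 82.4 and 83.1 in piPSC. It fell without overlap (log2 -2.24 ± 0.06), with the NuRD ATPase gene Chd4 (48.7 ± 1.30 against 94.9 ± 10.1 FPKM, log2 -0.95 ± 0.07), Bcl7a (3.74 ± 0.0466 against 11.1 ± 1.83 FPKM, log2 -1.57 ± 0.10) and Dpf1 (1.72 ± 0.170 against 5.18 ± 1.55 FPKM, log2 -1.81 ± 0.21). For Polycomb genes all 25 members passed the filter, of which 10 rose and 9 fell (median -0.07). Cbx7, the chromodomain subunit of ESC, was 51.3 and 49.0 FPKM in G2 and 92.7 and 85.9 in G5, against 6.85 and 8.10 in piPSC, with a smaller change on fragments (log2 2.21 ± 0.12). The core subunit gene Eed (68.2 ± 6.77 against 22.8 ± 1.63 FPKM, log2 1.54 ± 0.08), the accessory subunit genes Jarid2 (59.6 ± 3.18 against 17.2 ± 0.745 FPKM, log2 1.73 ± 0.06) and Mtf2 (59.8 ± 5.42 against 20.3 ± 0.158 FPKM, log2 1.42 ± 0.07) and L3mbtl2 (37.9 ± 5.50 against 8.88 ± 0.813 FPKM, log2 2.06 ± 0.07) rose, while Cbx2 (3.64 ± 0.0714 against 6.92 ± 0.424 FPKM, log2 -0.95 ± 0.08) and Ring1 (5.89 ± 0.446 against 9.99 ± 0.180 FPKM, log2 -0.89 ± 0.10) fell. Ezh2 was not called (37.3 ± 3.54 against 38.6 ± 2.87 FPKM, edgeR adjusted p = 0.34).

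Simple epithelial genes mostly rose, and genes of stratified, skin-like epithelium moved in both directions. For the simple epithelial list all 23 members passed the filter, of which 19 rose and 2 fell (median log2 change 3.10). Krt18 was 351 and 340.2 FPKM in G2 and 751 and 700.1 in G5, against 0.435 and 0.419 in piPSC, and Krt8, its partner in filaments, was 378 and 348 FPKM in G2 and 813 and 711 in G5, against 2.27 and 1.70 in piPSC. Both were higher in clone G5 than in G2 and near 0 in piPSC (log2 10.17 ± 0.12 and 8.03 ± 0.14), and WT ESC had 6.85 and 6.52 FPKM. Both genes have many processed copies that can share reads. The claudin genes Cldn4 (269.9 ± 30.5 against 0.539 ± 0.0312 FPKM, log2 8.94 ± 0.13) and Cldn7 (29.2 ± 6.03 against 0.135 ± 0.0191 FPKM, log2 8.76 ± 0.23) rose most among junction genes. Cdh1, the E-cadherin gene, was 86.3 and 83.2 FPKM in G2 and 83.2 and 78.8 in G5, against 8.83 and 10.5 in piPSC, and Epcam was 38.3 and 37.9 FPKM in G2 and 47.2 and 49.3 in G5, against 4.58 and 7.45 in piPSC, both higher without overlap (log2 3.10 ± 0.09 and 2.82 ± 0.16). Desmoplakin gene Dsp (11.2 ± 2.85 against 19.5 ± 3.24 FPKM, log2 -0.83 ± 0.10) and the scaffold gene Tjp1 (19.4 ± 0.862 against 56.4 ± 0.399 FPKM, log2 -1.54 ± 0.05) fell.

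Of the stratified epithelial genes, 20 of the 24 members chosen passed the filter, of which 8 rose and 11 fell (median log2 change -1.94). Lgals7, the galectin of stratified epithelium, was 1.40 and 1.17 FPKM in G2 and 0.854 and 1.05 in G5, against 363 and 309 in piPSC. Nccrp1 was 0.218 and 0.133 FPKM in G2 and 0.335 and 0.210 in G5, against 396 and 545 in piPSC. The desmosomal genes Dsg3 (0.0205 ± 0.0192 against 20.4 ± 0.183 FPKM, log2 -10.16 ± 0.16) and Pkp1 (0.0293 ± 0.00789 against 26.7 ± 6.31 FPKM, log2 -10.204 ± 0.21) fell as far, and the piPSC libraries stood above every Nanog-null library and above the WT ESC means of 1.41, 1.62, 0.0839 and 0.0541 FPKM. The basal keratin gene Krt14 and the basal factor gene Trp63 were low in both groups, at 1.37 ± 0.657 against 0.441 ± 0.0203 and 0.427 ± 0.0681 against 0.149 ± 0.0361 FPKM. Itgb4 (8.84 ± 1.35 against 32.3 ± 8.61 FPKM, log2 -2.69 ± 0.11) and Perp (34.1 ± 1.16 against 157 ± 9.69 FPKM, log2 -2.22 ± 0.06) fell too, whereas Itga6 (50.05 ± 7.53 against 16.4 ± 3.56 FPKM, log2 1.58 ± 0.13) and Sfn (21.8 ± 2.07 against 8.39 ± 1.04 FPKM, log2 1.36 ± 0.10) rose.

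Mesenchymal genes moved in both directions. Here all 15 members passed the filter, of which 10 rose and 5 fell (median log2 change 1.14). Cd44, the hyaluronan receptor gene, was 7.77 and 8.23 FPKM in G2 and 8.21 and 7.11 in G5, against 108 and 107 in piPSC. It fell (log2 -3.81 ± 0.07), with S100a4 (8.47 ± 1.09 against 97.3 ± 30.1 FPKM, log2 -3.55 ± 0.19), fibronectin gene Fn1 (234 ± 28.2 against 467 ± 105 FPKM, log2 -1.01 ± 0.11) and Zeb1 (5.13 ± 0.421 against 9.52 ± 0.0609 FPKM, log2 -0.95 ± 0.06). Prrx1 (10.3 ± 2.22 against 0.116 ± 0.0801 FPKM, log2 6.40 ± 0.22), Thy1 (11.7 ± 2.12 against 0.191 ± 0.0785 FPKM, log2 5.88 ± 0.20) and Snai1 (12.7 ± 1.56 against 4.63 ± 0.504 FPKM, log2 1.43 ± 0.11) rose, and MEF had 105, 170.4 and 42.5 FPKM of these.

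**Figure D4:**
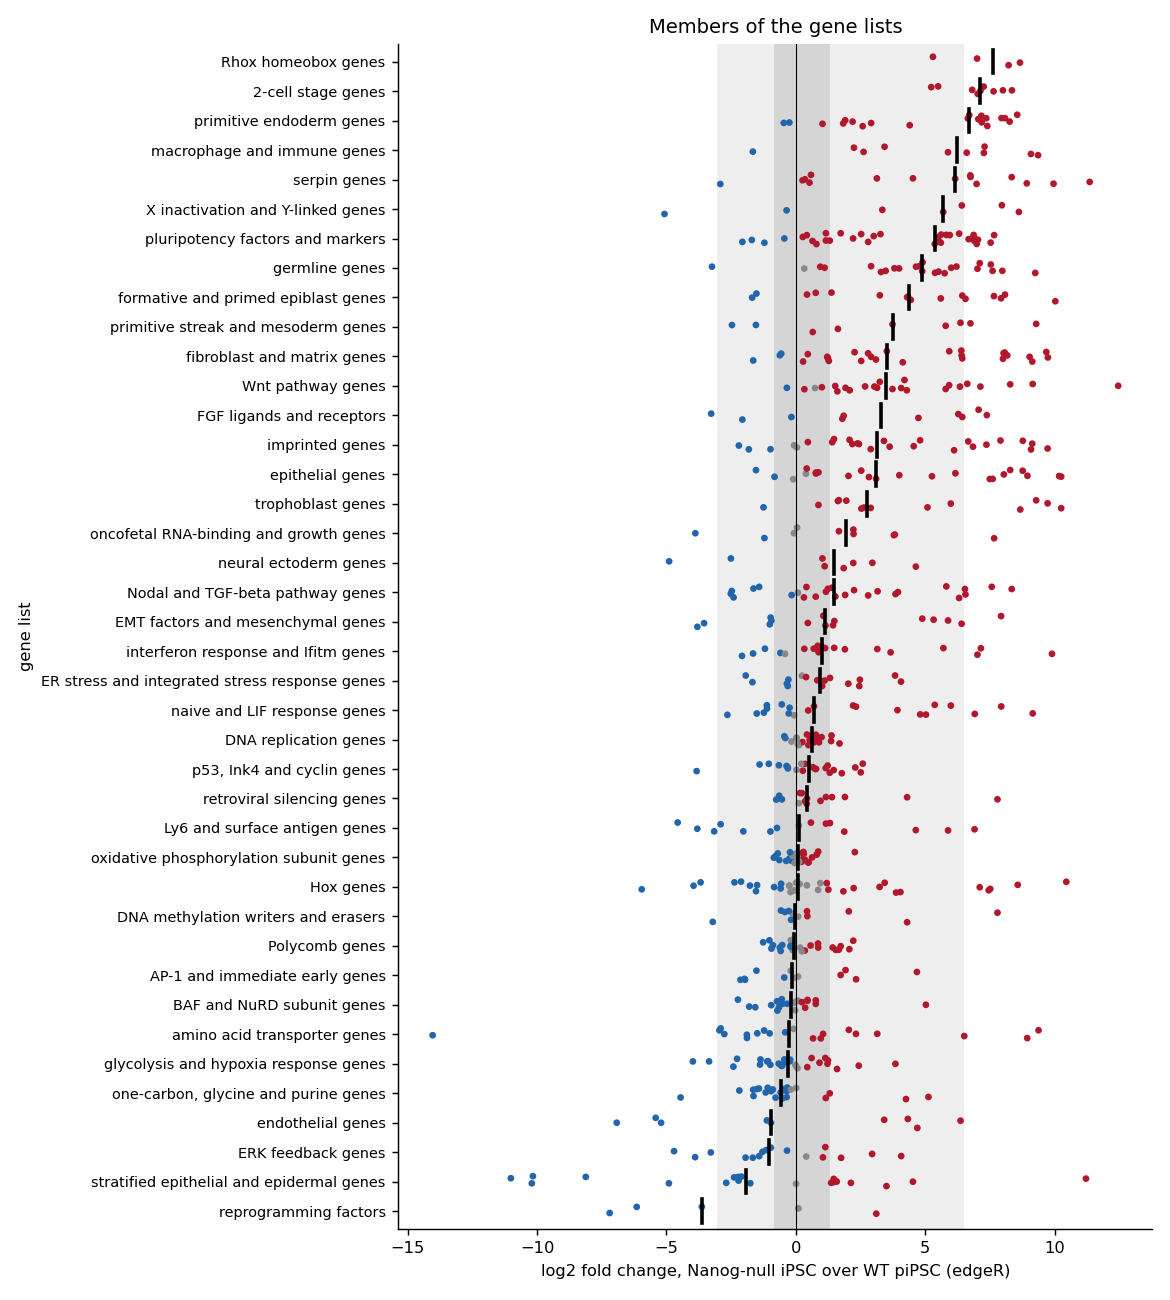
Log2 fold change of Nanog-null iPSC over WT piPSC (edgeR) for each tested member of each gene list, with lists ordered by their median (black bar). Red points rose, blue points fell and grey points passed no test, and the darker and lighter bands span the middle 50% and 90% of all genes tested. Pluripotency, germline and Wnt genes lie to the right, with medians of 5.36, 4.89 and 3.49, and ERK feedback and stratified epithelial genes to the left, with -1.06 and -1.94.

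Genes of extraembryonic lineages were higher in the Nanog-null clones. For primitive endoderm, the lineage that Nanog opposes in the blastocyst, 20 of the 23 members chosen passed the filter, of which 18 rose and 2 fell (median log2 change 6.67). Members near 0 in piPSC could pass only through the Nanog-null libraries, so the count of rises was partly set by the filter. Gata6, the factor that founds the lineage, was 20.6 and 19.5 FPKM in G2 and 14.8 and 15.1 in G5, against 0.196 and 0.00997 in piPSC. Sox17 was 12.9 and 9.43 FPKM in G2 and 8.20 and 9.37 in G5, against 0.110 and 0.0306 in piPSC. Both lay above piPSC in all Nanog-null libraries (log2 7.35 ± 0.31 and 7.04 ± 0.24) and above the 0.308 and 0.298 FPKM of WT ESC, and MEF had 3.89 and 0. The basement membrane genes Lama1 (41.4 ± 2.12 against 0.134 ± 0.0433 FPKM, log2 8.26 ± 0.15), Col4a1 (118 ± 6.15 against 0.728 ± 0.0613 FPKM, log2 7.39 ± 0.10) and Col4a2 (71.4 ± 3.56 against 0.483 ± 0.113 FPKM, log2 7.94 ± 0.14) rose with them, with 0.778, 245 and 161 FPKM in MEF. Gata4 rose less (15.4 ± 2.20 against 2.24 ± 0.130 FPKM, log2 2.58 ± 0.09), and Dab2, with 17.3 FPKM in G2 and 12.7 in G5 against 17.97 in piPSC, fell slightly. Nanog-null ESC had 18.5 FPKM of Gata6, 16.1 of Sox17 and 86.4 of Lama1. The summed FPKM of the primitive endoderm list was 551 to 620 in Nanog-null iPSC and 157 to 186 in piPSC. MEF had a higher sum than either, at 901 to 929.

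For trophoblast, 14 of the 16 members chosen passed the filter, of which 13 rose and 1 fell (median log2 change 2.76). Gata2 was 33.7 and 32.6 FPKM in G2 and 29.5 and 25.7 in G5, against 0.443 and 0.501 in piPSC. Plac1, a placental membrane gene, was 14.1 and 15.3 FPKM in G2 and 21.7 and 21.1 in G5, against 0.685 and 0.454 in piPSC. Neither overlapped (log2 5.98 ± 0.12 and 5.08 ± 0.18), and WT ESC had 0.755 and 0.0954 FPKM and MEF 4.08 and 0.215. Cdx2, the founding factor of the lineage, was low, at 3.76 ± 0.847 against 0.00722 ± 0.0102 FPKM, a ratio of 521 (95% counting interval 93.5 to 20577). Ascl2 (11.1 ± 1.13 against 1.47 ± 0.201 FPKM, log2 2.89 ± 0.16) and Esx1 (20.01 ± 1.67 against 5.81 ± 1.97 FPKM, log2 1.66 ± 0.17) rose, whereas Eomes was low at 1.71 ± 0.172 against 0.583 ± 0.176 FPKM and Tfap2a fell (2.98 ± 0.0885 against 6.87 ± 0.356 FPKM, log2 -1.25 ± 0.09). The summed FPKM of the list was 560.1 to 727 in Nanog-null iPSC, 25.04 to 29.9 in piPSC and 38.8 to 40.4 in MEF, and the larger part of it in Nanog-null iPSC was Peg10.

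Of the other lineages, mesoderm genes were mostly low in both groups, and neural and endothelial genes moved in both directions. Of 14 primitive streak and mesoderm genes 9 passed the filter, and beside Cdx1 none reached 5 FPKM, with T at 0.788 ± 0.193 against 0.0783 ± 0.0374. Their summed FPKM was 19.6 to 21.2 in Nanog-null iPSC and 2.63 to 2.92 in piPSC. In the neural list 8 of the 14 members chosen passed the filter, of which 6 rose and 2 fell, and the eye and brain factor Pax6 fell (0.299 ± 0.119 against 7.72 ± 2.26 FPKM, log2 -4.90 ± 0.19), as did the microtubule gene Mtap2 (2.68 ± 0.231 against 11.4 ± 1.30 FPKM, log2 -2.51 ± 0.09). Among endothelial genes 9 of the 10 members chosen passed the filter, of which 4 rose and 5 fell, and Emcn was below the filter. The angiopoietin receptor gene Tek (0.348 ± 0.0371 against 14.7 ± 3.197 FPKM, log2 -5.42 ± 0.14), its partner Tie1 (0.123 ± 0.0264 against 14.4 ± 2.36 FPKM, log2 -6.92 ± 0.16) and the junction gene Esam (1.68 ± 0.259 against 56.0 ± 4.36 FPKM, log2 -5.21 ± 0.08) fell, with Pecam1 (10.6 ± 0.595 against 22.2 ± 9.49 FPKM, log2 -1.12 ± 0.19) and Eng (10.23 ± 2.27 against 17.8 ± 1.81 FPKM, log2 -0.96 ± 0.08). Egfl7 (22.5 ± 0.576 against 2.12 ± 0.0128 FPKM, log2 3.41 ± 0.13) and Cdh5 (1.05 ± 0.119 against 0.0392 ± 0.0227 FPKM, log2 4.69 ± 0.30) rose, and Kdr (1.16 ± 0.286 against 0.0129 ± 0.00347 FPKM) and Cldn5 (0.292 ± 0.118 against 0.0122 ± 0.0172, a ratio of 23.9 (95% counting interval 4.30 to 946)) did so at low levels.

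Among macrophage and immune genes 10 of the 16 members chosen passed the filter, of which 9 rose and 1 fell. The filter partly set this count, since members near 0 in piPSC could pass it only through the Nanog-null libraries. The rises were led by chemokine genes that MEF make, Ccl2 (52.5 ± 16.2 against 0.0708 ± 0.0343 FPKM, MEF 260.1, a ratio of 739 (95% counting interval 253 to 3584)), Cxcl12 (10.5 ± 7.08 against 0.0116 ± 0.00869, MEF 164, a ratio of 748 (95% counting interval 207 to 6180.2)) and Ccl7 (28.8 ± 9.50 against 0.168 ± 0.0364 FPKM, log2 7.29 ± 0.21, MEF 88.0). Lyz2, a macrophage gene with 1 fragment in piPSC, had a ratio of 80.2 (95% counting interval 14.4 to 3167). Emr1 and Ptprc, other macrophage and immune genes of the list, had 0.0186 ± 0.0207 and 0.0125 ± 0.00454 FPKM in Nanog-null iPSC and 0 ± 0 and 0.00665 ± 0.00941 in piPSC. Laptm5 (64.8 ± 6.81 against 9.64 ± 0.0340 FPKM, log2 2.61 ± 0.08) and Cd68 (44.2 ± 8.83 against 8.65 ± 2.66 FPKM, log2 2.24 ± 0.14), lysosomal genes of the same macrophage and immune list, rose as well.

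Interferon-stimulated genes were mostly higher, and Ifitm2 and Ifitm3 lower. In this list 19 of the 20 members chosen passed the filter, of which 14 rose and 4 fell (median log2 change 0.996). Isg15 was 9.32 and 7.66 FPKM in G2 and 23.8 and 21.7 in G5, against 0.307 and 0.209 in piPSC, above piPSC throughout and higher in G5 than in G2 (log2 5.70 ± 0.25). Usp18 (6.89 ± 3.12 against 0.0469 ± 0.0139 FPKM, log2 7.01 ± 0.30), Oasl2 (9.25 ± 4.06 against 0.729 ± 0.0855 FPKM, log2 3.66 ± 0.16) and Irf7 (5.14 ± 2.65 against 0.516 ± 0.0478 FPKM, log2 3.14 ± 0.26) rose too, and MEF had 58.9, 19.3, 14.97 and 16.5 FPKM. Ifitm2 was 151 and 147 FPKM in G2 and 105 and 113 in G5, against 519 and 547 in piPSC, and Ifitm3 was 127 and 145 FPKM in G2 and 63.3 and 69.3 in G5, against 311 and 277 in piPSC. Both fell (log2 -2.08 ± 0.06 and -1.65 ± 0.08), as did the interferon factor gene Irf1 (12.2 ± 0.877 against 26.3 ± 3.55 FPKM, log2 -1.197 ± 0.08). Among surface antigens 15 of the 16 members chosen passed the filter, of which 7 rose and 7 fell. Ly6c1 was 14.1 and 15.7 FPKM in G2 and 14.7 and 15.7 in G5, against 358 and 345 in piPSC, lower in every Nanog-null library (log2 -4.57 ± 0.07), and Ly6e (34.9 ± 6.35 against 257 ± 4.71 FPKM, log2 -2.91 ± 0.07) and Ly6a (144 ± 22.8 against 575 ± 23.7 FPKM, log2 -2.03 ± 0.06), the Sca-1 gene, fell with it. Icam1 (12.6 ± 2.79 against 0.101 ± 0.0164 FPKM, log2 6.90 ± 0.17) and Cd9 (379 ± 39.8 against 150.1 ± 24.1 FPKM, log2 1.32 ± 0.09) rose.

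Imprinted genes, expressed from the copy of a single parent, were on the whole far higher in the Nanog-null clones, with piPSC near 0 for many. Of 27 chosen, 26 were in the files, and 21 rose and 3 fell (median log2 change 3.15, or 2.66 with genes at 0 in piPSC set to their limit). H19, a maternally expressed noncoding RNA, was 2202 and 1888 FPKM in G2 and 2134 and 1854 in G5, against 3.11 and 4.82 in piPSC. Igf2, the paternally expressed growth factor of the same cluster, was 159 and 156 FPKM in G2 and 205 and 174 in G5, against 0.303 and 0.378 in piPSC. Meg3, maternally expressed, was 56.7 and 51.7 FPKM in G2 and 67.5 and 66.6 in G5, against 0.198 and 0.111 in piPSC. All lay above piPSC without overlap (log2 9.08 ± 0.26, 9.13 ± 0.14 and 8.76 ± 0.22), but MEF also expressed them, at 1567, 1061 and 285 FPKM. Peg10, a gene of retrotransposon origin needed for the placenta, was listed at 403 and 395 FPKM in G2 and 487 and 409.8 in G5, against 0.466 and 0.700 in piPSC. Its quantification carried a failure mark in the 4 Nanog-null libraries, and its fragments were 97869, 52199, 90113 and 70242 in the Nanog-null libraries and 99 and 100 in piPSC. MEF had 9.71 FPKM, so Nanog-null iPSC stood well above both. Mest (31.4 ± 4.87 against 0.304 ± 0.113 FPKM, log2 7.36 ± 0.14) and Sgce (13.6 ± 1.14 against 0.140 ± 0.0143 FPKM, log2 6.66 ± 0.18), which shares an imprinted cluster with Peg10, rose too. Snrpn was not called (39.5 ± 12.3 against 39.5 ± 0.776 FPKM, edgeR adjusted p = 0.27). Plagl1 was 33.8 and 33.8 FPKM in G2 and 4.003 and 3.95 in G5, against 61.6 and 39.1 in piPSC. It fell (log2 -2.20 ± 0.15), far more in G5 than in G2. Cdkn1c, a growth inhibitor, had 23.3 FPKM in G2 and 56.9 in G5 against 71.2 in piPSC, and fell as well (log2 -0.98 ± 0.10). When the clones shared a term, neither passed the test (edgeR adjusted p = 0.122 for Plagl1 and 0.0763 for Cdkn1c).

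Sex-linked genes differed too, and sex-chromosome content, which was not tested, cannot be told apart from genotype and clone here. Xist, the RNA that coats the inactive X chromosome of female cells, was 12.7 and 12.4 FPKM in G2 and 6.59 and 6.76 in G5, against 314 and 320.3 in piPSC. Every Nanog-null library lay far below piPSC (log2 -5.08 ± 0.07), and MEF had 39.7 FPKM and WT ESC 3.22. Of the Y-linked genes, Ddx3y was 1.93 and 2.08 FPKM in G2 and 1.11 and 1.16 in G5, against 0.0198 and 0.0135 in piPSC, and Eif2s3y had 3.19 ± 1.10 against 0.0420 ± 0.0594 FPKM, a ratio of 332 (95% counting interval 59.6 to 13108), with MEF at 21.5 and 18.6. The piPSC were near 0, the Nanog-null clones low, and Nanog-null ESC had 22.8 and 24.7. Kdm5d (0.315 ± 0.110 FPKM) had no fragment in piPSC and was at least 18.1-fold higher, and Uty had 0.354 ± 0.0683 against 0.0286 ± 0.00711. Tsix, the antisense partner of Xist, had 0.422 ± 0.114 against 0.00721 ± 9.9e-05 FPKM, a ratio of 58.0 (95% counting interval 16.1 to 479), and without strand its reads cannot be told from those of Xist. B230206F22Rik, a noncoding gene of the X inactivation centre, had 2.81 ± 0.584 against 3.11 ± 0.177 FPKM, with overlap.

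Hox genes were low in both groups apart from some of the HoxA cluster. In this list 34 of the 37 members chosen passed the filter, of which 13 rose and 11 fell, and 13 rises and 8 falls were at least 2-fold. The median log2 change of 0.08 lay near the 0.03 of all genes. Hoxa9 was 0.804 and 0.880 FPKM in G2 and 0.314 and 0.525 in G5, against 30.3 and 43.7 in piPSC. Hoxa7 (1.33 ± 0.271 against 21.3 ± 1.07 FPKM, log2 -3.96 ± 0.13), Hoxa10 (1.34 ± 0.377 against 17.2 ± 2.42 FPKM, log2 -3.68 ± 0.16) and Hoxa5 (2.28 ± 0.655 against 7.56 ± 0.106 FPKM, log2 -1.78 ± 0.13) fell with it. In no Nanog-null library did Hoxa9 reach 1 FPKM, and MEF had 5.603. Among the rises, Hoxb9 and Hoxb2 had no fragment in piPSC and were at least 64.2-fold and 17.0-fold higher in Nanog-null iPSC.

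Growth and cell cycle genes moved in both directions. Hmga1, a chromatin protein gene of proliferating cells, was 24.2 and 26.1 FPKM in G2 and 24.2 and 23.7 in G5, against 252 and 300.1 in piPSC, and Hmga2, its relative, was 73.2 and 75.5 FPKM in G2 and 68.7 and 67.99 in G5, against 3.63 and 6.38 in piPSC. They moved in opposite directions without overlap (log2 -3.89 ± 0.08 and 3.82 ± 0.19), and MEF had 485 and 400.1 FPKM. Igf2bp1 (48.5 ± 3.76 against 6.30 ± 0.309 FPKM, log2 2.23 ± 0.09), Igf2bp2 (61.5 ± 3.78 against 12.96 ± 2.64 FPKM, log2 2.22 ± 0.10) and the ubiquitin ligase gene Trim71 (7.87 ± 0.9499 against 2.46 ± 0.454 FPKM, log2 1.66 ± 0.12) rose. Of 22 p53, Ink4 and cyclin genes 13 rose and 7 fell (median log2 change 0.51). Ccnd1, the cyclin D1 gene, was 19.13 and 19.7 FPKM in G2 and 15.1 and 15.7 in G5, against 249 and 236 in piPSC. It fell furthest (log2 -3.84 ± 0.06), before the inhibitor gene Cdkn1b (12.7 ± 1.49 against 30.1 ± 5.32 FPKM, log2 -1.40 ± 0.08) and Ccne2 (3.99 ± 1.10 against 8.78 ± 1.22 FPKM, log2 -1.05 ± 0.09). Cdkn2a, which encodes the cell cycle inhibitors Ink4a and Arf, was 49.1 and 43.3 FPKM in G2 and 38.2 and 40.6 in G5, against 5.54 and 9.14 in piPSC. It rose (log2 2.50 ± 0.17) with its neighbour Cdkn2b (27.6 ± 8.41 against 5.39 ± 0.129 FPKM, log2 2.29 ± 0.09) and the p53 targets Pmaip1 (16.6 ± 1.74 against 2.74 ± 0.192 FPKM, log2 2.58 ± 0.09) and Sesn2 (34.5 ± 1.97 against 9.97 ± 2.098 FPKM, log2 1.77 ± 0.11). Cdkn1a, the p21 gene, was not called (131 ± 33.2 against 122 ± 23.3 FPKM, edgeR adjusted p = 0.094). Its log2 change of 0.20 was 0.45 without piPSC 1 and 0.005 without piPSC 2. Among 26 replication genes 19 rose and 2 fell, most by less than 2-fold (median 0.60), led by the origin recognition gene Orc1 (20.7 ± 0.240 against 5.96 ± 1.10 FPKM, log2 1.68 ± 0.11), Tyms (84.5 ± 10.4 against 28.1 ± 2.102 FPKM, log2 1.37 ± 0.09) and Mcm10 (37.9 ± 1.38 against 13.03 ± 0.0741 FPKM, log2 1.36 ± 0.07), while Mcm6 (55.0 against 70.9 FPKM, log2 -0.41) and Rrm2 (47.6 against 63.5 FPKM, log2 -0.45) fell.

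In most metabolic lists more members fell than rose. In the glycolysis and hypoxia list 29 of the 30 members chosen passed the filter, of which 9 rose and 16 fell (median log2 change -0.32). Egln3, an oxygen sensor and itself a hypoxia target, was 2.20 and 2.33 FPKM in G2 and 2.95 and 3.19 in G5, against 30.3 and 52.0 in piPSC. It fell (log2 -3.98 ± 0.18), with Aldoc (6.98 ± 0.722 against 65.1 ± 19.3 FPKM, log2 -3.35 ± 0.15), Pdk1 (14.1 ± 2.29 against 56.5 ± 6.23 FPKM, log2 -2.42 ± 0.07), which keeps pyruvate out of mitochondria, and the lactate dehydrogenase gene Ldha (202 ± 21.8 against 503 ± 60.7 FPKM, log2 -1.39 ± 0.07). The glucose transporter gene Slc2a3 was 111 and 111 FPKM in G2 and 92.5 and 91.4 in G5, against 6.96 and 8.42 in piPSC, and rose (log2 3.84 ± 0.12) with Slc2a1 (178 ± 11.8 against 58.9 ± 34.4 FPKM, log2 1.59 ± 0.27), Gapdh (1760.3 against 746 FPKM, log2 1.24) and Aldoa (689.7 against 295 FPKM, log2 1.22). Subunits of oxidative phosphorylation stayed close to the median of all genes. There all 30 members passed the filter, of which 13 rose and 8 fell (median 0.08), and Cox7a1 (23.6 ± 6.09 against 4.61 ± 0.200 FPKM, log2 2.28 ± 0.19) was the member that changed at least 2-fold.

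Genes of folate, glycine and purine metabolism, on which ESC depend, mostly fell, with glycine cleavage and threonine catabolism genes among the few rises. In this list all 23 members passed the filter, of which 4 rose and 17 fell (median log2 change -0.59). The glycine cleavage genes Amt (46.0 ± 8.62 against 1.61 ± 0.417 FPKM, log2 5.12 ± 0.12) and Gldc (9.98 ± 0.456 against 0.521 ± 0.0861 FPKM, log2 4.25 ± 0.12) and the threonine catabolism genes Tdh (9.64 ± 1.54 against 3.04 ± 0.284 FPKM, log2 1.31 ± 0.15) and Gcat (43.3 ± 3.47 against 19.4 ± 3.26 FPKM, log2 1.15 ± 0.09) rose. Phgdh, the first enzyme of serine synthesis, was 27.5 and 25.9 FPKM in G2 and 31.9 and 34.9 in G5, against 142 and 127 in piPSC, and Paics, of purine synthesis, was 143 and 143 FPKM in G2 and 147 and 163 in G5, against 470.2 and 470.0 in piPSC. Both fell without overlap (log2 -2.19 ± 0.07 and -1.65 ± 0.06), as did the mitochondrial gene Shmt2 (31.1 ± 1.32 against 95.8 ± 5.03 FPKM, log2 -1.64 ± 0.06). Hprt, the purine salvage enzyme, was 9.90 and 12.6 FPKM in G2 and 5.57 and 6.71 in G5, against 194 and 164 in piPSC. It fell furthest of the list (log2 -4.45 ± 0.11), and both WT ESC (123 FPKM) and WT iPSC 1 (106) were near piPSC while Nanog-null ESC (6.94) were near the Nanog-null clones. The Nanog-null fibroblasts derived from Nanog-null ESC, per the labels' protocols. Clone G2, with the higher fibroblast genes, was above G5, and MEF had 73.5 FPKM. The cause of the low Hprt was not tested, and neither was the part of feeder RNA in its level. Of 20 amino acid transporter genes 9 rose and 10 fell. Beside Slc38a5, the taurine transporter gene Slc6a6 (13.8 ± 0.993 against 106 ± 19.7 FPKM, log2 -2.95 ± 0.09), the cystine transporter gene Slc7a11 (1.38 ± 0.241 against 10.1 ± 0.947 FPKM, log2 -2.91 ± 0.08) and Slc6a9 (2.78 ± 0.465 against 18 ± 1.86 FPKM, log2 -2.77 ± 0.12) fell most. Slc38a4, an imprinted transporter gene, was 356 and 332 FPKM in G2 and 589 and 567 in G5, against 0.522 and 0.398 in piPSC, and rose by log2 9.37 ± 0.11.

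WT ESC served as a level against which to place both groups. Of the 3228 genes that rose at least 4-fold (19.6% of those tested), 35.2% had Nanog-null iPSC alone within 2-fold of WT ESC 1 and 2, and 12.4% had piPSC alone there. In a further 37.7% WT ESC lay between them, and in 14.7% beyond both. Nanog-null iPSC were at least 2-fold above WT ESC for 52.9% of these genes. Of the 1563 that fell at least 4-fold (9.5%), Nanog-null iPSC alone were near WT ESC for 45.1%, piPSC alone for 11.1% and neither for 43.8%. Over all genes the shares were 23.8% and 11%, with 41.0% near in both. Groups at least 4-fold apart cannot both be near, so the shares of all genes are no equal baseline for those of changed genes. These shares are descriptions without a test. Of the genes that rose at least 4-fold, 25.8% had an FPKM of at least 1 in MEF and at least 2 times that of c57/b6 WT ESC, as had 25.3% of all genes tested. For 67.7% of all 3228 rises Nanog-null iPSC were above the MEF level itself, as they were for 54.1% of all genes tested. Many of these rises were low in MEF: 40.0% of them reached 1 FPKM there, against 71.9% of all genes tested.

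**Figure D5:**
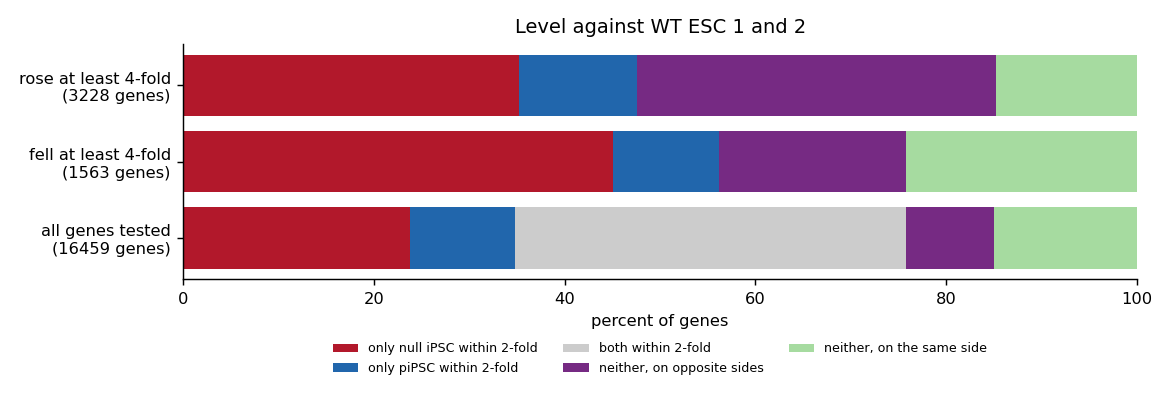
Percent of genes, for those that rose at least 4-fold, fell at least 4-fold and all tested, by whether Nanog-null iPSC, piPSC, both or neither lay within 2-fold of WT ESC 1 and 2, and, for neither, whether they lay on opposite sides or the same side of it. Red, for Nanog-null iPSC alone, takes 35.2% of rises and 45.1% of falls, and blue, for piPSC alone, 12.4% and 11.1%.

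For some genes piPSC were within 2-fold of WT ESC and the Nanog-null clones were not. Beside Serpinb9e and Car4, the highest above WT ESC among them were Nrk (48.0 ± 13.7 against 0.408 ± 0.0177 FPKM, log2 6.83 ± 0.14, WT ESC 0.837, MEF 3.46), a kinase gene of the placenta, and Gata2, given above. Dmkn (15.8 ± 4.68 against 0.404 ± 0.243 FPKM, log2 5.33 ± 0.20), Fam78b (10.3 ± 1.92 against 0.102 ± 0.0407 FPKM, log2 5.07 ± 0.20), the synaptic vesicle gene Syp (10.5 ± 1.81 against 0.104 ± 0.0380 FPKM, log2 5.58 ± 0.21) and Tmem150a (94.1 ± 10.6 against 1.92 ± 0.219 FPKM, log2 5.596 ± 0.13) followed, with 0.509, 0.200, 0.222 and 3.70 FPKM in WT ESC and 3.62, 2.08, 2.51 and 49.1 in Nanog-null ESC. In MEF these genes had 0.484, 2.88, 0.107 and 14.7 FPKM. Farthest below were Hprt, Zbtb32 (1.04 ± 0.397 against 13.9 ± 0.0880 FPKM, log2 -4.07 ± 0.12, WT ESC 12.2), a zinc finger repressor gene, and the Ras activator gene Rasgrp2 (0.717 ± 0.232 against 11.9 ± 1.95 FPKM, log2 -4.27 ± 0.19, WT ESC 9.51). Hmga1, given above, had 206 FPKM in WT ESC. Pla2g4b (1.63 ± 0.529 against 21.9 ± 2.82 FPKM, log2 -3.99 ± 0.11), the transaminase gene Gpt2 (10.6 ± 2.09 against 50.2 ± 5.90 FPKM, log2 -2.41 ± 0.08), the proline synthesis gene Pycr1 (8.35 ± 0.938 against 37.7 ± 1.89 FPKM, log2 -2.22 ± 0.08) and the glutathione-degrading gene Chac1 (2.67 ± 0.721 against 9.90 ± 5.10 FPKM, log2 -1.94 ± 0.26) came next, with 13.2, 74.8, 50.5 and 16.3 FPKM in WT ESC. Nanog-null ESC had 2.68, 12.5, 11.4 and 5.99 FPKM of these, below WT ESC in each case.

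The contrast of each clone with piPSC called 80.3% of genes for G2 and 80.7% for G5. Against piPSC, 6290 genes (38.2%) were higher in both clones and 5951 (36.2%) lower in both, and 47 (0.286%) were called in opposite directions. Both contrasts share the piPSC libraries. Set against each other, the clones differed at 2287 genes (13.9%), 363 (2.21%) at least 2-fold higher in G2 and 242 (1.47%) lower. Of the fibroblast and matrix genes tested, 22 passed this test, all higher in G2 (median log2 difference 0.948), and of the epithelial genes 6 did, all higher in G5. Of the pluripotency genes 9 were higher in G5 and 1 in G2. Nanog itself, outside that list, was also higher in G5, at 27.5 FPKM in G2 against 41.5 in G5 (log2 -0.53 ± 0.09, edgeR adjusted p = 0.0036).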

How the data were processed

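RNA-seq libraries of 2 Nanog-null iPSC clones and of WT piPSC (1 clone) were compared. Per the submitters' processing notes, Cuffdiff 2.1.1, TopHat2 2.0.7, CASAVA and Bowtie2 2.0.5 were used, and the builds mm10 and NCBIM37 are named without a role, so no coordinate comes from the files. The authors deposited, per gene and library, FPKM and estimated counts of fragments, as the file headers name them. The estimated counts were rounded, and 4 genes without a value were left out. Genes were filtered with filterByExpr, scaled by TMM and tested with edgeR 4.0.16 (glmQLFit, glmQLFTest) in R 4.3.3, with terms for G2, G5 and piPSC and the mean of the clones minus piPSC as contrast, at a Benjamini-Hochberg adjusted p under 0.05. The code was tested on simulated data. Named genes were the 12 largest rises and falls reaching 10 FPKM in a group, the 8 farthest on either side of WT ESC with piPSC near it, and members of 40 lists; all members and lists were chosen with earlier results of these data known. Of 731 members, 723 were matched by symbol or ID, and a few are not reported here. Promoters are from RefSeq (GRCm38.p6). Alternatives were RLE scaling, library totals, no filter, a level filter, limma 3.58.1 on log2(FPKM + 0.1 or 1), DESeq2 1.42.0, a replicate block, no clone terms, more libraries and leaving out each library. Replicates of a clone differed by more than sampling noise, and by most in piPSC. Scaled to the number of genes, the chi-square was 24.4 for piPSC, 4.26 for G2 and 6.38 for G5. The fit holds no separate spread for piPSC, so its errors may be too small on that side.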

Additional observations from a re-analysis of the deposited data

Results flagged for a closer look

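Effects against piPSC that differed between the clones, by at least 2-fold in the edgeR test of G2 minus G5 (adjusted p under 0.05), were found for 23 of 294 genes of the text. Fibroblast and matrix genes were higher in G2: the log2 difference was 1.43 ± 0.08 for Col1a1, 1.31 ± 0.07 for Col1a2, 1.72 ± 0.07 for Col3a1 and 1.03 ± 0.08 for Lox. The chemokine gene Cxcl12 (1.89 ± 0.10) and the growth cone gene Gap43 (1.07 ± 0.12) lay the same way, and MEF express all of these. So did Serpina3g (1.59 ± 0.14), Serpina3n (2.63 ± 0.12), Ifitm3 (1.05 ± 0.10) and the Wnt target Sp5 (1.34 ± 0.15). The imprinted gene Plagl1 differed most, by log2 3.01 ± 0.21, while Cdkn1c, also imprinted, was lower in G2 (-1.27 ± 0.12). Lower in G2 were the interferon-stimulated genes Isg15 (-1.40 ± 0.16), Irf7 (-1.36 ± 0.23), Oasl2 (-1.23 ± 0.13) and Usp18 (-1.09 ± 0.16). The keratin genes Krt7 (-1.08 ± 0.09), Krt8 (-1.06 ± 0.10) and Krt18 (-1.06 ± 0.07) were lower as well, as were Lefty2 (-1.04 ± 0.10), Taf7l (-1.12 ± 0.11) and the genes of the 2-cell stage Tmem92 (-1.38 ± 0.12) and Zscan4f (-1.13 ± 0.11). The summed FPKM of the fibroblast genes was higher in G2 too, and its part in these differences was not tested.

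In 6 genes a single Nanog-null library stood apart from the other libraries of its group by Dixon's test on the 4 libraries, a gap that chance gives in about 1 in 20 groups. They were Peg10 at 487 FPKM, Gdf3 at 17.7, Jund at 48.6, Mcm6 at 57.4, Ddit3 at 40.6 and Setdb1 at 29.4. Each stayed on the same side of both piPSC libraries as the rest of its group.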

How the results depend on the processing

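Of 292 tested genes of the text, 280 kept their direction and their side of the threshold under every one of the 16 alternatives that tested them. The count of called genes was 13554 of 16459 with a replicate block, and 8030 at least 2-fold, against 13684 and 8043 without it. Libraries with the same number did not deviate together, so the numbers do not pair them, and the block changed no call of a named gene. Leaving out each Nanog-null library in turn, with both piPSC libraries kept, gave 13152 to 13423 called genes and 8160 to 8327 at least 2-fold. Asking for 5 FPKM on average in either group left 8851 called and 3840 at least 2-fold, with fewer genes tested (10465), and limma on log2(FPKM + 1) gave 4860 at least 2-fold of 13702 tested. Within 1.5-fold of WT ESC, Nanog-null iPSC alone were near for 21.2% of the genes that rose at least 4-fold and 27.6% of those that fell, a narrower band by construction. Sox2 had a log2 change of -0.25 without piPSC 1 and 0.58 without piPSC 2, and Socs3 -0.31 and 0.25: both turned with the piPSC library kept, and the cause was not tested. With no clone term, Timp3, L1td1, Tcf7l2, Plagl1 and Cdkn1c no longer passed. Cdkn1a, Sycp1 and Atf4 passed the test under some alternatives that kept both piPSC libraries, library totals among them. B230206F22Rik lost its call under 4. Dnmt1 departed from the main fit only without piPSC 1, with a log2 change of -0.23. A fit that leaves out a piPSC library holds no spread between piPSC libraries, so only its effect sizes are given. With library totals in place of TMM, 56.1% of calls were higher in Nanog-null iPSC, against 51.0% with it. Without the genes at FPKM of at least 1 in MEF and at least 2 times c57/b6 WT ESC, an alternative chosen after seeing the data, 5899 of 12287 genes were called at least 2-fold, 3403 higher and 2496 lower. Depth limits genes with few fragments, for which bounds or counting intervals are given.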

Other observations

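Serpin genes, which encode protease inhibitors, were another family higher in the Nanog-null clones. Of the list, all 15 members passed the filter, of which 14 rose and 1 fell (median log2 change 6.15, or 5.45 with genes at 0 in piPSC set to their limit). Serpina3n, a secreted inhibitor, was 53.9 and 56.2 FPKM in G2 and 8.37 and 9.64 in G5, against 0.422 and 0.191 in piPSC. G2 lay far above G5, and G5 above piPSC (log2 6.15 ± 0.19), while MEF had 2.49 FPKM and Nanog-null ESC 7.93. Serpine2, also called protease nexin, was 122 and 130.2 FPKM in G2 and 103 and 96.5 in G5, against 1.42 and 0.326 in piPSC, again without overlap (log2 6.98 ± 0.31), with 91.7 FPKM in MEF. Serpina3g (14.4 ± 8.27 against 0.0463 ± 0.0655 FPKM, a ratio of 633 (95% counting interval 175 to 5224)), Serpinb9b (28.9 ± 7.23 against 0.262 ± 0.0447 FPKM, log2 6.74 ± 0.13) and Serpinf1 (80.6 ± 29.1 against 0.635 ± 0.0712 FPKM, log2 6.74 ± 0.12) rose, with 20.8, 17.6 and 473 FPKM in MEF. Serpinb5, an epithelial member, was the member that fell (0.645 ± 0.137 against 4.84 ± 0.197 FPKM, log2 -2.92 ± 0.16). Members of one clade share reads where copies are near-identical.

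Genes of the integrated and endoplasmic reticulum stress responses were split. Of the list, all 16 members passed the filter, of which 10 rose and 5 fell (median log2 change 0.92). Ddit3, the CHOP factor, was 40.6 and 35.7 FPKM in G2 and 35.7 and 34.8 in G5, against 9.19 and 8.02 in piPSC. It rose without overlap (log2 2.02 ± 0.11), with the pseudokinase gene Trib3 (14.01 ± 2.46 against 5.46 ± 2.56 FPKM, log2 1.32 ± 0.21) and the asparagine synthetase gene Asns (282 ± 33.3 against 139 ± 32.8 FPKM, log2 1.01 ± 0.13). Herpud1, of endoplasmic reticulum protein degradation, was 12.3 and 13.1 FPKM in G2 and 10.5 and 9.59 in G5, against 38.1 and 33.1 in piPSC, and fell (log2 -1.68 ± 0.08) like Chac1. Atf4, the factor that drives many of these genes, had 233 ± 64.9 against 191 ± 44.6 FPKM and was not called (edgeR adjusted p = 0.088). Its log2 change of 0.23 was 0.50 without piPSC 1 and 0.008 without piPSC 2.

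By chromosome, the median log2 change of Nanog-null iPSC over piPSC lay between -0.0960 on chromosome 17 and 0.148 on chromosome 18. On chromosome 8 both groups had low medians against WT ESC, at -0.356 for Nanog-null iPSC and -0.485 for piPSC over 818 genes. On chromosome 15 clone G2 had a median of -0.197 against G5 over 600 genes. Gene copy number was not measured.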
